A study of Mus musculus with 6 samples.

Results

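The genes described here let circulating leukocytes hold on to a vessel wall. They are Sele and Selp (E- and P-selectin), Selplg (the selectin ligand PSGL-1), Fut7 (the fucosyltransferase that finishes selectin ligands), Icam1, Icam2, Vcam1 and Pecam1 (adhesion molecules of the immunoglobulin superfamily) and Cd34 (a sialomucin). They were taken by symbol, and the estimated reads and TPM (a share of all transcripts, per unit of transcript length) of each gene's transcripts were summed. All 9 symbols were found among the 54309 genes of the tables, with 41 transcripts between them. RNA-seq was done on C57BL/6 mice (left sciatic nerve, distal part), with 3 libraries from females and 3 from males, to look for differences between the sexes. The animals were 6 to 8 weeks old, tissue was taken 24 h after surgery, and each library pooled 2 animals. All 6 libraries carry the treatment label axotomy, which is also the word of the design text, whereas the written procedure describes an exposed nerve that was left uncut (sham), so which surgery the levels belong to is not settled by the labels. There is no unoperated group, and no gene below can be called induced or reduced by the surgery.

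A leukocyte leaves the blood in steps. Selectins on activated endothelium catch glycans that fucosyltransferases have built on ligands such as PSGL-1, so that the cell rolls. Integrins on the leukocyte then bind ICAM-1, ICAM-2 and VCAM-1 and stop it, and PECAM-1 at the endothelial junction takes part in its passage between the cells. In a bulk tissue, fewer cells of a type and less RNA per cell cannot be told apart.

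Libraries held 55272138 to 77610593 estimated reads, and 3 reads, the limit that a count of 0 allows, are at most 0.0543 CPM (reads scaled to a common library size), for counting error only. The Y-linked Ddx3y lay at 76.7 to 88.3 CPM in the males and 0 to 0.157 CPM in the females, as the sex labels have it. Mbp, a myelin gene of Schwann cells, was present in all libraries of the labelled tissue, at 2269 to 3361 TPM in females and 4552 to 5613 TPM in males, with a log2 fold change of -0.87 (SE 0.19; edgeR adjusted p = 0.140); limma-voom did not call it and DESeq2 did. Female 2 and male 1 stood apart with 1232 and 634 TPM of skeletal muscle markers, led by Acta1 and Tnnt3, against 8.74 to 26.1 TPM in the other 4. The 17 endothelial markers, led by Ecscr and Egfl7, summed to 561, 469 and 435 TPM in females 1 to 3 and to 516 to 543 TPM in males, and Cdh5 (VE-cadherin) lay between 29.2 and 41.5 TPM, so endothelial RNA was present in every library.

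Per unit of length, Cd34 was the most abundant of the 9 genes at 122 ± 26.9 TPM (SD, n = 6 libraries, as for the following means), with Selplg next at 101 ± 12.0 TPM. Pecam1 followed at 48.3 ± 10.8 TPM and Icam1 at 38.8 ± 3.69 TPM. Selp stood at 23.6 ± 7.66 TPM, Icam2 at 17.7 ± 2.85 TPM and Vcam1 at 14.3 ± 2.02 TPM. Sele, at 2.45 ± 0.816 TPM, and Fut7, at 1.14 ± 0.188 TPM, were the scarce ones. In this order the ranges of neighbours overlapped for Cd34 and Selplg, for Pecam1 and Icam1, for Icam1 and Selp, for Selp and Icam2 and for Icam2 and Vcam1. They did not overlap between Selplg and Pecam1, between Vcam1 and Sele, or between Sele and Fut7, although the last gap was narrow, with Sele no lower than 1.41 TPM and Fut7 no higher than 1.36 TPM.

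**Figure D1:**
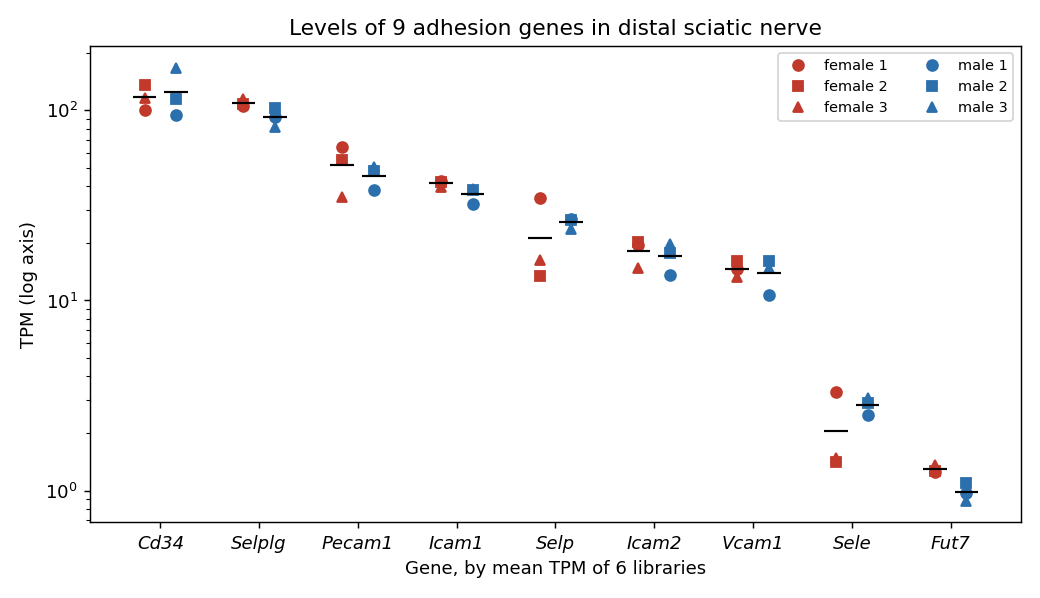
Level of each of the 9 adhesion genes (TPM, log axis) in the 3 female (red) and 3 male (blue) libraries; the marker shape gives the library and the black line is the mean of a sex. Cd34 and Selplg are the highest and Sele and Fut7 the lowest, and the selectins Sele and Selp are spread widest, with female 1 high and females 2 and 3 low.

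None of the 9 genes differed between the sexes past the threshold, an adjusted p under 0.05 in edgeR's quasi-likelihood test with adjustment over all 19129 genes tested; over all genes 0.110% were called, 0.0157% with the higher level in females and 0.0941% with it in males. DESeq2, which called 4.55% of all genes, and limma-voom, which called 0.136%, also called 0 of the 9. Counts by these tools in the gene lists below are to be read beside those shares. At an unadjusted p under 0.05 edgeR counted 2 of the 9, Selplg and Icam1, or 22.2%, against 14.5% of all genes. The log2 fold change, female minus male, was above 0 for 6 of the 9 and below 0 for 3, with a median of 0.11, beside a median of 0.02 and 53.6% above 0 for all genes. The groups did not overlap in CPM for 1 of the 9, Icam1 (higher in female), against 21.2% of all genes in either direction. These shares over 9 genes chosen by name are a description. Since edgeR did not call Xist either, a gene that was not called is not shown to be equal between the sexes.

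**Figure D2:**
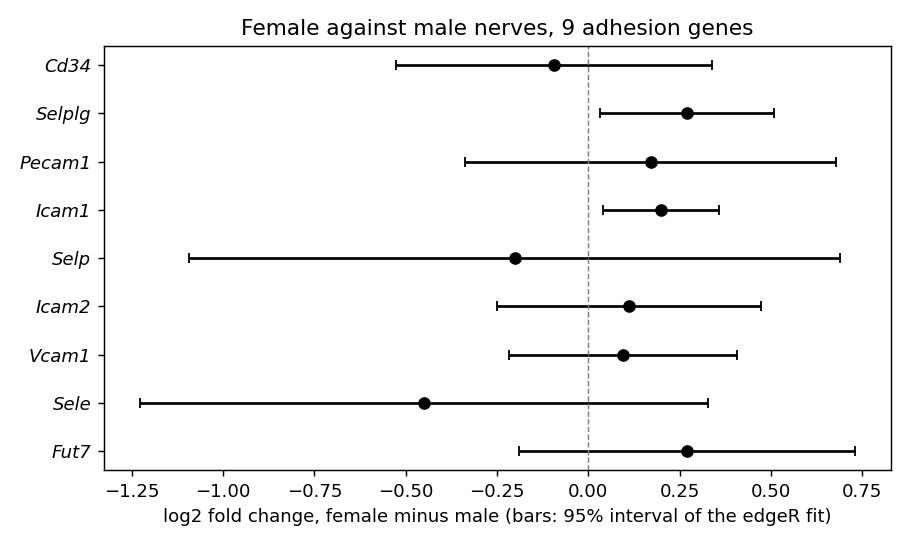
Log2 fold change, female minus male, of each adhesion gene with the 95% interval of the edgeR fit, ordered by mean TPM. The intervals of Selplg and Icam1 lie above 0 before adjustment over all genes, those of the other 7 include 0, and Sele and Selp have the widest.

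Sele and Selp lie near each other on chromosome 1, at chr1:164048234-164057677 and chr1:164115264-164150026 on the plus strand (GRCm38), 57.6 kb apart. E-selectin is made by activated endothelium, and P-selectin is stored in endothelial cells and platelets. Both varied from library to library more than the other members did. Their promoters are shown because both genes were high and low in the same libraries, with that of Icam1, a steadier gene, beside them. Each line holds the 250 bases before the transcription start of the RefSeq annotation of GRCm38.p6, 5′ to 3′ on the plus strand, at chr1:164047984-164048233 for Sele, chr1:164115014-164115263 for Selp and chr9:21015690-21015939 for Icam1. Capitals mark matches to GGNNNTTCC (a loose form of the NF-kB motif), TGANTCA (AP-1), TGACATCA (ATF), TTCNNNGAA (STAT) and TATAAA (the TATA box), searched on both strands.
Sele: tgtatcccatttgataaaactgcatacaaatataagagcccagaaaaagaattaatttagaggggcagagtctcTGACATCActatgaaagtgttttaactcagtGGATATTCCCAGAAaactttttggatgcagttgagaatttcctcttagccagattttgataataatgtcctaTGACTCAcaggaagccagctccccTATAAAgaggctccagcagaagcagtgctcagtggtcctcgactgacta
Selp: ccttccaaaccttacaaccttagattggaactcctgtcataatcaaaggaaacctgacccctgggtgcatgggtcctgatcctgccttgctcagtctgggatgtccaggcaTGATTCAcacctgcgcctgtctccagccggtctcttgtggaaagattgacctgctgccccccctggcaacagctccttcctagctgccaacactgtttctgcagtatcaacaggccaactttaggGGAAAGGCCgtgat
Icam1: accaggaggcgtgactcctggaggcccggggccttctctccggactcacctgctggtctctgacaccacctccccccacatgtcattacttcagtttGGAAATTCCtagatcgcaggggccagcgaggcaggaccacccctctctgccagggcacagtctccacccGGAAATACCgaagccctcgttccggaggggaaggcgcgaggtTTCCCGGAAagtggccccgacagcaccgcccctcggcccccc
The Sele window held an ATF match at -176, an NF-kB form at -145 that overlaps a STAT match at -140, an AP-1 match at -73 and a TATA box at -49 from the start. The Selp window held an AP-1 match at -139 and an NF-kB form at -14, the latter on the complementary strand. In Icam1 there were NF-kB forms at -153 and, on the complementary strand, at -84, and a STAT match at -42. Of 32851 such windows in the table, 15.7% held the NF-kB form, 6.75% the AP-1, 2.93% the ATF, 7.02% the STAT and 12.4% the TATA letters. The windows of Cd34 and Fut7 held none of these letters, and the windows of Selplg, Icam2, Vcam1 and Pecam1 were not analysed here. A match is a run of letters and was not tested as a site.

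Sele was listed at 3.29, 1.41 and 1.49 TPM in females 1 to 3 and at 2.51, 2.90 and 3.09 TPM in males 1 to 3. Female 1 was the highest of the 6 and the other 2 females were the lowest, so the groups overlapped. Female minus male, the log2 fold change was -0.45 (SE 0.33, 95% interval -1.23 to 0.33; edgeR adjusted p = 0.585). These values rest on 179 to 451 estimated reads per library. Leaving out 1 female moved it both ways, to -0.97 without female 1 (unadjusted p = 0.000312, adjusted p = 0.225, edgeR), -0.24 without female 2 and -0.26 without female 3.

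Selp, the more abundant selectin, stood at 34.4, 13.4 and 16.4 TPM in females and at 26.97, 26.6 and 23.8 TPM in males. The same library was highest and the same 2 were lowest as for Sele, and the males lay close together between them. For Selp the log2 fold change was -0.20 (SE 0.36, 95% interval -1.09 to 0.69, edgeR adjusted p = 0.846). It was 0.033 when female 2 was left out and -0.72 when female 1 was (unadjusted p = 0.00049, adjusted p = 0.238, edgeR). The direction of Selp therefore hung on single female libraries. Nearly all Selp reads, 91.5% to 99.7%, fell on the full-length coding transcript Selp-205 (768 codons). In male 1, 347 reads (8.25%) were assigned to Selp-202, an annotated retained intron, against 0 to 37.8 reads in the other 5 libraries. Counting Selp-205 alone, an alternative chosen after these values were seen, gave a log2 fold change of -0.16 (edgeR adjusted p = 0.879).

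The highest library exceeded the lowest 2.57-fold for Selp and 2.33-fold for Sele in TPM, against 1.32-fold for Icam1 and 1.84-fold for Pecam1, the widest of the other 7. The ratio of Sele to Selp (TPM) stayed between 0.0905 and 0.130 in all 6 libraries. Because 4 libraries sat high and 2 low, no correlation over all 6 is given for the pair. Within the 4 high libraries Pearson r of log2 CPM was 0.790, given with no test, and the 2 low ones are too few for a value. Per Cdh5, the endothelial cadherin, Selp was 0.879, 0.330 and 0.562 in females and 0.871, 0.760 and 0.573 in males, so that female 2 was lowest and female 1 highest on this scale as well. Sele per Cdh5 was 0.0841, 0.0348 and 0.0509 in females and 0.0744 to 0.0828 in males. Thus females 2 and 3 were also low in Sele, though less evenly in Selp, when set against an endothelial gene.

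Other values of the same libraries are given beside the selectins, and they did not all follow the order of Sele and Selp. Female 2 was the library with most skeletal muscle and adipocyte RNA (2498 TPM of 7 adipocyte markers, led by Fabp4 and Cfd, against 792 to 1640 TPM in the other 5). Female 3 had 26.1 TPM of the muscle markers. Ackr1, a receptor of venular endothelium, was at 74.3, 60.7 and 63.7 TPM in females and 88.8 to 95.9 TPM in males, with a log2 fold change of -0.49 (SE 0.11; edgeR adjusted p = 0.157). Of the 17 endothelial markers 13 were above 0 and 4 below, with a median of 0.07. The groups did not overlap for 3 of them, Ackr1, Vwf and Ecscr, all lower in females, beside 21.2% of all genes. Cldn5, a tight junction gene, had a log2 fold change of 0.36 (SE 0.14, edgeR adjusted p = 0.290). EdgeR called 0 of the 17 (3 at an unadjusted p under 0.05, beside 14.5% of all genes), limma-voom 0 and DESeq2 1 (beside 4.55%), Ackr1. Of 6 platelet markers 4 were below 0 and 2 above. EdgeR called 0 of them (3 at an unadjusted p under 0.05, beside 14.5% of all genes), limma-voom 0 and DESeq2 2 (beside 4.55%), Pf4 and Ppbp. The list summed to 1571 to 1621 TPM in females and 838 to 1291 TPM in males, nearly all of it Pf4 and Ppbp. Itga2b lay at 17.5 to 29.3 TPM, and Gp1ba and Gp6 no higher than 0.411 TPM in any library. Gp9, at 0.863 to 3.53 TPM, was lower in every female than in every male, as 11.5% of all genes were. None of the 6 was at 0. Ackr1, Vwf, Cldn5 and the platelet genes other than Pf4 and Ppbp were singled out after their values were seen. What part venular, platelet or muscle RNA had in the level of Selp and Sele was not tested.

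**Figure D3:**
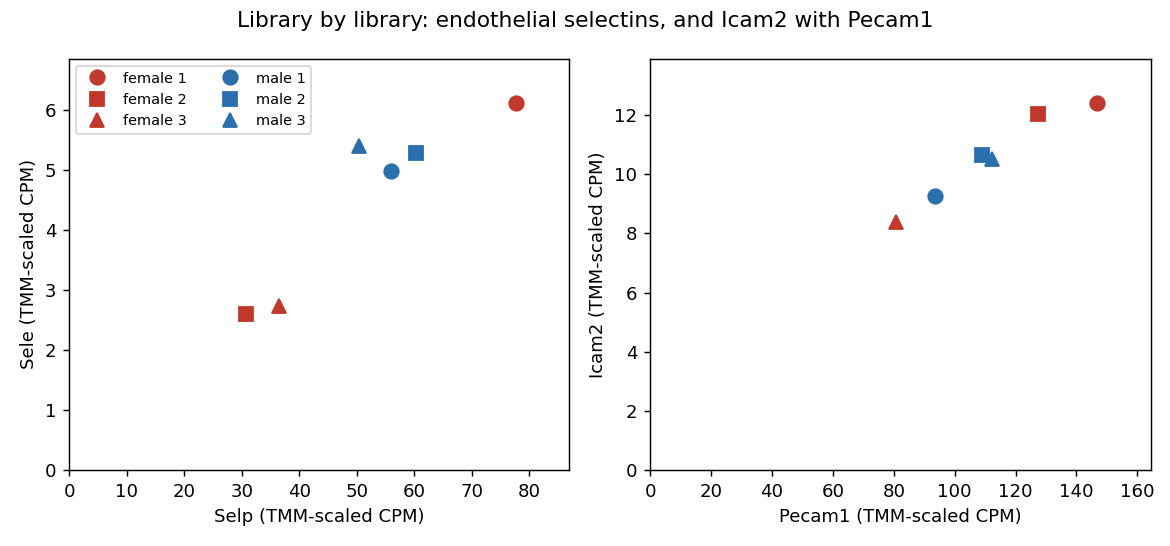
Sele against Selp (left) and Icam2 against Pecam1 (right), in CPM scaled by the TMM method, with 1 point for each library, red for female and blue for male. On the left female 1 is highest and females 2 and 3 lowest in both genes, and on the right the 6 points lie close to a line, with female 1 highest and female 3 lowest.

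By a fixed rule the 3 genes, other than members, whose log2 CPM followed a selectin most closely over the 6 libraries were sought among 14745 genes. For Selp these were Sub1 (Pearson r = 0.997), Ehd3 (0.997) and Slc25a28 (0.978), and 73 genes exceeded 0.9. For Sele they were Gm4739 (0.991), Hmg20b (0.983) and Slc39a14 (0.981), and 63 genes exceeded 0.9. These are the top of a search over 6 libraries and are given with no test.

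On the ligand side, Selplg (chr5:113818536-113832644, minus strand) encodes the main P-selectin ligand of leukocytes. It stood at 129, 137 and 144 CPM in the 3 female libraries, and the males had 110, 130 and 101 CPM. Female 1 lay just below male 2, so that the groups overlapped by that pair only. The log2 fold change was 0.27 (SE 0.10, 95% interval 0.03 to 0.51; unadjusted p = 0.0304, adjusted p = 0.292, edgeR). It was above 0 under all 18 alternatives of the processing, from 0.19 to 0.38. Selplg-201 (417 codons) held 94.8% to 97.3% of the reads.

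Selplg is a leukocyte gene, so leukocyte markers are given beside it. Neutrophil markers, led by S100a9 and S100a8, were higher in females for 7 of 8 genes, with sums of 5797, 2822 and 5248 TPM in females and 4354, 3383 and 2058 TPM in males. Monocyte and macrophage markers, led by Lyz2 and Ly6c2, were higher for 7 of 8, with sums of 3631 to 5098 TPM in females and 3061 to 4575 TPM in males. Lymphocyte markers, led by Trbc1 and Trbc2, were scarce and lower in females for all 9, at 9.31 to 11.4 TPM against 15.7 to 21.7 TPM. None of these 25 genes was at 0 in all libraries. EdgeR and limma-voom called 0 of them; DESeq2 called the neutrophil gene Mmp8 and the lymphocyte genes Klrb1c, Lck and Trbc1, and at an unadjusted p under 0.05 edgeR counted 3 neutrophil, 0 monocyte and macrophage and 7 lymphocyte markers. Over all genes DESeq2 called 4.55%, and 14.5% had an unadjusted p under 0.05 in edgeR. Their part in the value of Selplg was not tested.

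Fut7 (chr2:25423267-25426374, plus strand) adds the fucose that makes sialyl Lewis x, the glycan that selectins bind. Females had 1.17, 1.44 and 1.62 CPM and males 1.23, 1.23 and 1.05 CPM, from 58 to 124 reads per library. The groups overlapped in CPM, through female 1, but in TPM (1.25, 1.27 and 1.36 against 0.968, 1.09 and 0.886) they did not. In female 1, 0.336 TPM (26.8%) came from 2.435 reads assigned to Fut7-205, a processed transcript of 337 bases. No other library had reads on it, and without it the groups would overlap in TPM as well. Fut7 had a log2 fold change of 0.27 (SE 0.20, 95% interval -0.19 to 0.73; edgeR adjusted p = 0.582), and 0.16 without female 3. Fut7 reads per 1000 Selplg reads were 9.03, 10.5 and 11.2 in females and 11.1, 9.46 and 10.4 in males, and here the groups overlapped. In TPM, Fut7 per Selplg was 0.0119, 0.0118 and 0.0118 in females and 0.0105, 0.0106 and 0.0109 in males, with no overlap. That gap also rests on the few Fut7-205 reads of female 1, without which this library would be the lowest of all. The answer thus depended on the scale and on that transcript.

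The transcripts of Fut7 differ at their 5′ ends and in their start codons. Fut7-202, with 2 exons, starts translation in its first exon and codes for 389 codons. Fut7-203 and Fut7-201, with 3 exons, start in the second exon and code for 342 codons. The first coding bases of both forms are shown, since assignment between them is where the libraries parted, with the start codon in capitals, from chr2:25423815-25423844 and chr2:25424766-25424778 (GRCm38, plus strand, GENCODE M21).
Fut7-202: ATGccaaccccctgcccaccagcctgcctg
Fut7-203: ATGaattgtattg
Fut7-202 led with 58.6%, 32.9% and 63.7% of Fut7 reads in females and 79.3%, 79.7% and 69.2% in males. Every male share was above every female share. The means were 51.8% ± 16.5 and 76.1% ± 5.96 (SD, n = 3 each; two-sided exact permutation test p = 0.1, the smallest that 3 against 3 allow). The share of female 2 was the farthest from the others, and without it the difference fell from -24.3 to -14.9 percentage points.

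Fut7-203 was assigned 29.8, 45.7 and 34.4 reads in females 1 to 3 and 0 in each male. These are 34.6%, 46.1% and 27.7% of the gene in females, while a count of 0 allows up to 3.26%, 4.05% and 5.17% in males 1 to 3. The two-sided exact permutation test again gave its smallest p, 0.1. Salmon splits reads between transcripts by an estimate, and the limit of 3 reads does not cover that step. Of 2026 transcripts from genes with 50 to 200 reads in each library, 4 (0.197%) had 0 reads in all libraries of 1 sex and at least 20 in each of the other; 9.97% of them had shares that did not overlap. This split was singled out after the values were seen.

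Fut7-201, which shares the inner start codon, took 0%, 15.4% and 3.64% of the reads in females and 16.0%, 13.0% and 27.3% in males, with higher values in males but overlap through female 2. Summed, Fut7-201 and Fut7-203 made up 34.6%, 61.6% and 31.3% in females and 16.0%, 13.0% and 27.3% in males. The groups still did not overlap, but male 3 and female 3 came near each other (two-sided exact permutation p = 0.1), and the means, 42.5% and 18.8%, lay closer than those of Fut7-203 alone, 36.1% and 0%. Fut7-204, a short form, held 3.48% to 7.29%.

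The wider set of selectin ligands and the enzymes that build them had 19 genes, of which 16 passed the filter on low counts. EdgeR called 0 of them (5 at an unadjusted p under 0.05, beside 14.5% of all genes), limma-voom 0 and DESeq2 2 (beside 4.55% of all genes), Chst2 and St3gal3; 11 were above 0 and 5 below, with a median log2 fold change of 0.03. The smallest p-values belonged to Chst2, a sulfotransferase (-0.82, SE 0.15), St3gal3, a sialyltransferase (-0.38, SE 0.09), Gcnt1, which starts core 2 branches (0.43, SE 0.12), and St3gal6 (0.33, SE 0.10), with edgeR adjusted p of 0.127 to 0.224. The most abundant were Cd44 at 210.4 TPM and Cd24a at 102 TPM. Chst4, Glycam1 and Madcam1, genes of lymph node and gut vessels, lay below the filter, at a mean of at most 0.196 TPM.

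Icam1 (chr9:21015985-21028817, plus strand) is the inducible ligand of the leukocyte integrins LFA-1 and Mac-1. Females 1 to 3 had 76.6, 76.6 and 71.3 CPM and males 1 to 3 had 61.5, 68.2 and 65.8 CPM. All 3 females lay above all 3 males, as 9.65% of all genes did. Icam1 had a small but tightly measured log2 fold change, 0.20 (SE 0.07, 95% interval 0.04 to 0.36; unadjusted p = 0.0196, adjusted p = 0.255, edgeR), and lay between 0.14 and 0.23 under all 18 alternatives. Icam1-201 (537 codons) held 94.9% to 96.9% of its reads.

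Of 12 genes for the integrins that bind these ligands and for their activators, 11 passed the filter, 10 were above 0 and 1 below, with a median of 0.18; edgeR called 0 (4 at an unadjusted p under 0.05, beside 14.5% of all genes), limma-voom 0 and DESeq2 1 (beside 4.55%), Itgax. Itgax had a log2 fold change of 0.44 (SE 0.12), Itgam 0.43 (SE 0.14), their shared partner Itgb2 0.43 (SE 0.15) and Itgal 0.43 (SE 0.17), with edgeR adjusted p of 0.183 to 0.324. Itgb1 was the most abundant at 338 TPM and Itgam next at 176 TPM. Several of these are myeloid genes, and the neutrophil, monocyte and lymphocyte marker sums given with Selplg can be read beside them. The part of these cells in the integrin values was not tested.

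Of 15 genes for the cytokines, receptors and NF-kB factors known to induce Sele, Icam1 and Vcam1, 13 passed the filter, 9 were above 0 and 4 below, with a median of 0.03; edgeR called 0 (3 at an unadjusted p under 0.05, beside 14.5% of all genes), limma-voom 0 and DESeq2 2 (beside 4.55%), Tnf and Tnfaip3. Tnf was at 12.3, 19.7 and 14.9 TPM in females and 11.3, 7.40 and 5.13 TPM in males. Its log2 fold change was 0.93 (SE 0.34, edgeR adjusted p = 0.296). The groups did not overlap, with females higher, as for 9.65% of all genes. Tnfaip3, an NF-kB target and feedback inhibitor, had 0.61 (SE 0.20) and Tnfrsf1b 0.41 (SE 0.15), and Il1b, the most abundant at 229 TPM, had 0.39 (SE 0.30; edgeR adjusted p = 0.614). Tnfrsf1a, the other abundant member at 177 TPM, had -0.03, and Ifng and Lta lay below the filter.

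Vcam1 (chr3:116109949-116129688, minus strand), the ligand of the integrin VLA-4, had 27.9, 29.96 and 24.9 CPM in females, with 20.9, 29.4 and 27.2 CPM for the males. Male 1 was the lowest library and the rest overlapped. The log2 fold change was 0.10 (SE 0.13, 95% interval -0.22 to 0.41; edgeR adjusted p = 0.792), -0.033 without male 1 and 0.20 without male 2. Vcam1-201, the full form of 739 codons, held 85.4% to 90.5% of its reads.

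A shorter Vcam1 was assigned reads in every library. Vcam1-203 (345 codons) took 7.27% to 12.2%, or 127 to 202 reads. It leaves the common exons for a last exon of its own, whose coding bases are shown with the stop codon in capitals (chr3:116123684-116123793, GRCm38, minus strand, GENCODE M21).
Vcam1-203: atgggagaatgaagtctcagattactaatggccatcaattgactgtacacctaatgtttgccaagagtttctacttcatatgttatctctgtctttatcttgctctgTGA
The shares overlapped between the sexes, at 9.10% ± 1.69 in females and 9.97% ± 1.95 in males (SD, n = 3; two-sided exact permutation p = 0.7).

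Pecam1 and Icam2 lie on the minus strand of chromosome 11, at chr11:106654217-106750628 and chr11:106377656-106388075, 266.1 kb apart. Both are expressed constitutively by endothelium, though which cells their reads came from was not tested. The levels of the 2 genes followed each other from library to library. Pecam1 was at 147, 127 and 80.6 CPM in the females, and at 93.6, 109 and 112 CPM in the males. Icam2 was at 12.4, 12.0 and 8.40 CPM in the females, and at 9.26, 10.6 and 10.5 CPM in the males. For both genes female 1 was highest, female 2 next and female 3 lowest of all, with the males between.

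Of the 36 pairs of members, Icam2 and Pecam1 had the largest Pearson correlation of log2 CPM over the 6 libraries (Pearson r = 0.987, exact permutation p = 0.00278, adjusted over 36 pairs p = 0.1; Spearman rho = 0.943, exact permutation p = 0.0167, adjusted p = 0.3). Selplg and Fut7 had the same rho. Without females 1 and 3, the libraries farthest from the median, r was 0.987. No pair passed 0.05 after adjustment, and 3 libraries a sex are too few for a value within each sex. Both genes were read from the same libraries. Icam2 per Cdh5 (TPM) lay between 0.440 and 0.508 and Pecam1 per Cdh5 between 1.19 and 1.64; the part of endothelial content in the correlation was not tested. The genes most like Pecam1 outside the members were B3gnt3 (r = 0.988), Sema3f (0.985) and Ap2a1 (0.980), the top of a search in which 110 genes exceeded 0.9.

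Between the sexes, Pecam1 had a log2 fold change of 0.17 (SE 0.21, 95% interval -0.34 to 0.68, edgeR adjusted p = 0.760). It was 0.38 without female 3 (unadjusted p = 0.0107, adjusted p = 0.177, edgeR) and -0.015 without female 1. Icam2 had 0.11 (SE 0.16, 95% interval -0.25 to 0.47; edgeR adjusted p = 0.788), which was 0.27 without female 3 (unadjusted p = 0.0397, adjusted p = 0.304, edgeR) and 0.010 without female 1. Icam2-201 (277 codons) held 75.9% to 86.4% of its reads and Icam2-203 (162 codons) 9.31% to 18.5%.

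The Pecam1 transcript with the largest share of reads, by Salmon's estimate, was a form with a shortened cytoplasmic tail. The tail of PECAM-1 carries tyrosines, some of them in inhibitory motifs that recruit the phosphatase SHP-2 when phosphorylated. Alternative splicing removes parts of the tail. Pecam1-203 (697 codons), which lacks a 57-base and a 23-base exon, held 55.6%, 51.3% and 57.1% of Pecam1 reads in females and 50.1%, 51.7% and 49.5% in males. The means were 54.7% ± 3.03 and 50.4% ± 1.10 (SD, n = 3; two-sided exact permutation p = 0.2), and female 2 lay within the males. Pecam1-202 (716 codons), which has the 57-base exon only, held 16.4% to 22.9%, and Pecam1-204 (727 codons), with both, held 17.2% to 22.5%. Pecam1-207 (626 codons) lacks a 303-base exon at chr11:106697052-106697354 and held 4.33% to 6.11% in 5 libraries and 11.2% in male 1.

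The tail exons are printed because their use separates these forms, in GENCODE M21 transcripts on GRCm38, minus strand, with in-frame tyrosine codons in capitals. The 63-base exon (chr11:106679549-106679611) is in all 4 leading transcripts, the 57-base exon is at chr11:106671742-106671798 and the 23-base exon at chr11:106662002-106662024.
63-base exon: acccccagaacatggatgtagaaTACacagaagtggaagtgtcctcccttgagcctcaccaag
57-base exon: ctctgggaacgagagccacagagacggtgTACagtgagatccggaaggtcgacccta
23-base exon: atctcatggaaaacagaTACtct
Each exon holds 1 tyrosine codon, and which of these codons lie in an inhibitory motif was not analysed. The length of the 57-base exon is a multiple of 3, so leaving it out keeps the frame, and that of the 23-base exon is not, so the last exon is read in another frame with and without it. Its coding bases follow for both frames, with the stop codon in capitals, from chr11:106655143-106655162 and chr11:106655133-106655162.
Pecam1-203 and Pecam1-202: agaacggaaggctccctTAA
Pecam1-204: agaacggaaggctcccttaatggaactTAA
Transcripts with the 57-base exon and its tyrosine codon together made up 43.3%, 47.6% and 41.2% of Pecam1 reads in females and 48.6%, 47.1% and 49.0% in males (two-sided exact permutation p = 0.2). Those with both exons made up 22.7% to 28.5% with no separation of the sexes (two-sided exact permutation p = 0.8). In each library most Pecam1 reads were thus assigned to transcripts that lack at least 1 of these exons.

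**Figure D4:**
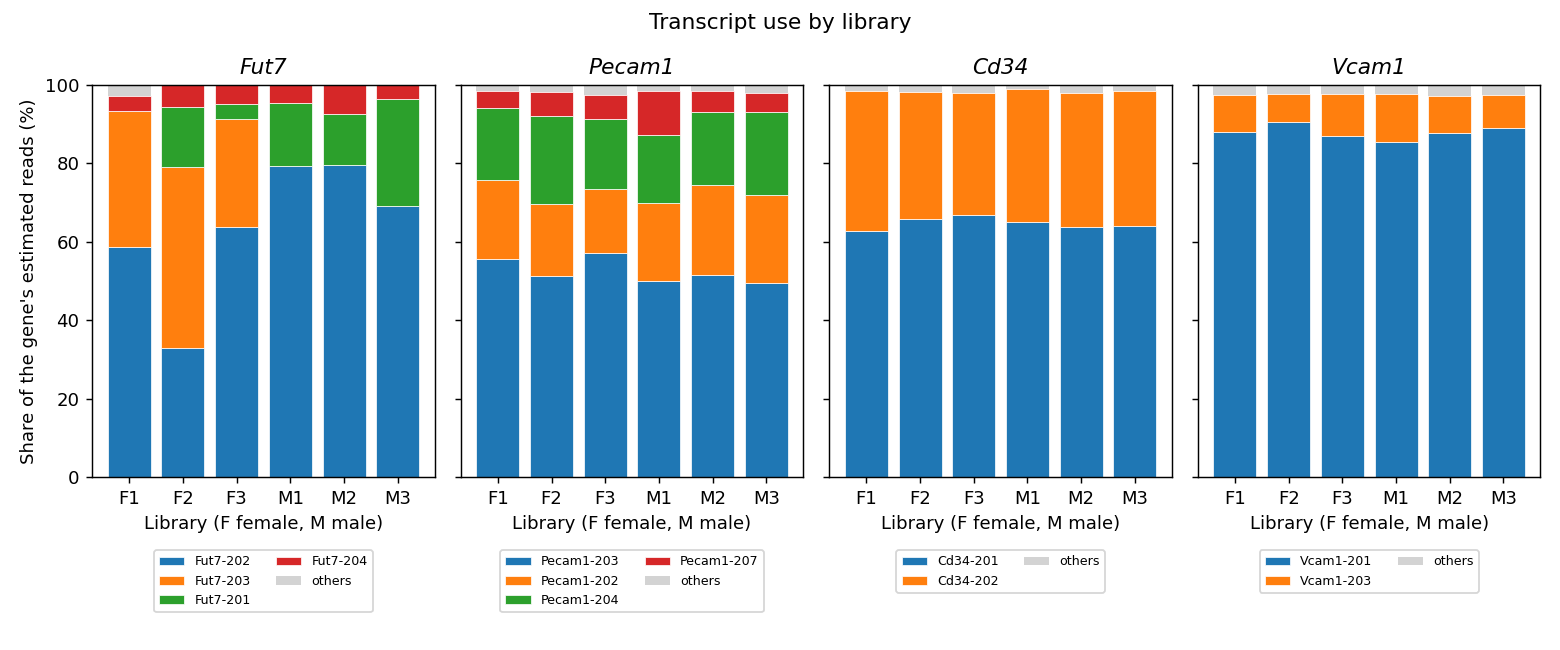
Share (%) of each gene's estimated reads on its transcripts in the 3 female (F) and 3 male (M) libraries, for Fut7, Pecam1, Cd34 and Vcam1; transcripts under 5% in all libraries are pooled as others. Fut7-203 (orange) appears in the female bars only, whereas the Pecam1, Cd34 and Vcam1 bars differ little between libraries.

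Cd34 (chr1:194938819-194961279, plus strand), a sialomucin of endothelium that some fibroblasts and progenitor cells also carry, had 153, 204 and 174 CPM in the females, and 155, 170 and 241 CPM in the males. Male 3 was highest and female 1 lowest. The log2 fold change was -0.09 (SE 0.18, 95% interval -0.53 to 0.34; edgeR adjusted p = 0.859), and it was 0.12 without male 3 and -0.21 without female 2. Cd34 did not keep a fixed proportion to Cdh5, at 2.57 to 4.05 per Cdh5 in TPM. Fibroblast markers, led by Dcn and Col3a1, were highest in male 3 as well, at 8510 TPM, against 4837 to 5664 TPM in females and 6184 and 6694 TPM in the other males. Of these markers 6 of 8 were lower in females and none was at 0. EdgeR called 0 (4 at an unadjusted p under 0.05, beside 14.5% of all genes), limma-voom 0 and DESeq2 2 (beside 4.55%), Dcn and Col1a1. The part of fibroblast RNA in the level of Cd34 was not tested.

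Cd34 also came in 2 forms in steady proportion. Cd34-201 (382 codons) held 62.7% to 66.7% of its reads and Cd34-202 (325 codons) 31.3% to 35.7%. The last exon of Cd34-202 is extended at its start, which brings an earlier stop codon; a form of CD34 with a truncated cytoplasmic tail is known. Its last coding bases are shown with the stop codon in capitals (chr1:194959780-194959794, GRCm38, plus strand, GENCODE M21).
Cd34-202: gagctggaacctTGA
The share of Cd34-201 was 65.1% ± 2.11 in females and 64.3% ± 0.777 in males (SD, n = 3; two-sided exact permutation p = 0.6), a smaller spread than that of the gene's level.

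Of 17 further genes for endothelial junctions and passage through them, 15 passed the filter, 8 were above 0 and 7 below, with a median of 0.03. EdgeR called 0 (4 at an unadjusted p under 0.05, beside 14.5% of all genes), limma-voom 0 and DESeq2 3 (beside 4.55% of all genes), Alcam, Cd99l2 and Jam3. Cd99 was not analysed here. Alcam, which binds CD6 and itself, had the smallest p, with a log2 fold change of 0.45 (SE 0.09; edgeR adjusted p = 0.127). Cd99l2 had -0.35 (SE 0.09), Jam3 -0.51 (SE 0.15) and Bcam -0.22 (SE 0.09), with edgeR adjusted p of 0.169 to 0.338. These 3 of the 15 were lower in every female than in every male, as 11.5% of all genes were. Alcam was the 1 gene higher in every female, as 9.65% of all genes were. Sirpa (182 TPM) and its ligand Cd47 (152 TPM) were the most abundant.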

How the data were processed

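RNA of 6 libraries, 3 per sex by the sex label, was measured as stranded, poly-A selected RNA-seq with paired reads of 100 cycles, per the labels' protocols. Trimmomatic 0.39, Salmon 1.5.2 and MultiQC 1.9 are listed in the submitters' processing notes; for the annotation and build, neither is given in the sources used here. Per the file headers, each deposited table gives an estimated count of reads (not normalized by the authors), a TPM value and an effective length (used only for a length offset) for 140789 transcripts. All 41 transcripts of the 9 genes had the same stable ID, name and length in GENCODE M21 (GRCm38), which gave coordinates and sequences; promoter windows came from RefSeq (GRCm38.p6), where 5 of the 9 genes matched.

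Estimated counts were summed per gene and rounded. edgeR 4.0.16 in R 4.3.3 (filterByExpr, which kept 19129 genes including all 9; TMM; robust quasi-likelihood test; Benjamini-Hochberg adjustment over all genes kept) compared female with male. Log2 fold changes are female minus male, and CPM is TMM-scaled. Transcript shares were compared by exact permutation tests. The fit was tested on simulated counts. Alternatives used DESeq2 1.42.0, limma 3.58.1 (voom, and log2 of TPM plus 1 or 0.1), other scalings and filters, a length offset, a replicate block, and libraries left out. Libraries of one sex differed by more than sampling noise (chi-square per degree of freedom of at least 26.3). Per the labels' protocols, each replicate was its own pool of animals.

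The members and gene lists were chosen with earlier results of these data known. Named are all members, the 4 genes of smallest p and the 2 of highest TPM of each pathway list, the 2 highest of each marker list, and transcripts with at least 5% of a Fut7 or Pecam1 library's reads; Cdh5 was used as an endothelial reference outside this rule. Of the promoter table's windows only the 250 bases before the start were used. A result that this rule would name is not reported here.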

Additional observations from a re-analysis of the deposited data

How the results depend on the processing

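None of the 9 adhesion genes was called under any alternative run, and the count at an unadjusted p under 0.05 ranged from 0 to 3 of 9. The log2 fold changes of Sele, Selplg, Fut7 and Icam1 kept their sign throughout. Others changed sign when libraries were left out: with 1 library left out, Selp ranged from -0.72 (without female 1) to 0.033 (without female 2), Pecam1 from -0.015 (without female 1) to 0.38 (without female 3), Vcam1 from -0.033 (without male 1) to 0.20 (without male 2), and Cd34 from -0.21 (without female 2) to 0.12 (without male 3), with 0.00098 without female 1. Without female 2 and male 1, the libraries with muscle RNA, Selp was 0.045, Icam2 -0.022 and Vcam1 -0.10. The shares of Fut7-202 and Pecam1-203 kept their direction under every alternative run, with differences of -30.3 to -14.9 and 2.99 to 5.91 percentage points when 1 library was left out.

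Over all genes, 3 were called with more RNA in female nerves and 18 with more in male nerves. These counts were 44 and 147 with no low-count filter, 233 and 638 with DESeq2, 1 and 9 with limma on log2(TPM + 1), and 7 in female with limma-voom. Without female 2 and male 1, 6 were higher in female. With 1 library left out they ranged from 0 to 17 in female and from 4 to 188 in male nerves, both highest without female 3. With the replicate number as a block they were 0 and 3. Same-numbered libraries did not deviate together (correlations of -0.0971, -0.189 and 0.0138). With 3 such values, from deviations centred within each sex, whether the numbers pair the samples is not settled. The causes were not tested. Depth limits Fut7 most, at 58 to 124 reads per library.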
